A study of Mus musculus with 212 samples.

Results

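Described here are 38 mouse genes of lysosomal enzymes, membrane proteins, proton pump subunits and regulators, chosen by symbol with earlier results of these data known. Of these, 37 had a mean of at least 1 FPKM (fragments per kilobase of transcript scaled to the number of mapped reads), out of 13164 such genes among the 47631 in the table. Cathepsin S (Ctss), a protease best known from antigen-presenting cells, lay outside at a mean of 0.0765 FPKM, with at most 0.157 FPKM as its mean in any time course and 0.297 FPKM in any library. The lowest means inside the limit were 5.62 FPKM for Gpnmb, 5.93 FPKM for Tfeb and 8.46 FPKM for Cd68.

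Lysosomes are acidic compartments in which proteases, glycosidases and lipid hydrolases break down material from endocytosis and autophagy. A proton pump in the lysosomal membrane keeps the lumen acidic, heavily glycosylated membrane proteins shield it, and channels and transporters release ions and breakdown products. The transcription factors TFEB and TFE3 activate many lysosomal genes when they enter the nucleus, binding a palindrome built around CACGTG, the E-box that clock factors such as CLOCK and BMAL1 also bind.

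The study measured poly(A) RNA of cultured skin fibroblasts of C57BL/6 mice, either Bmal1-/-, labelled Bmal1KO, or WT, to see which daily rhythms persist without Bmal1. Confluent cultures of both genotypes received 100 nM dexamethasone for 15 min, which sets the phase of cultured cells, and stood in constant darkness until the first harvest 48 h later. Each genotype has 5 time courses with 1 library per time point: AM and PM, with 17 libraries each taken every 3 h, and cultures at 27, 32 and 37 °C, with 24 libraries each taken every 2 h (23 used at 27 °C). The meaning of AM and PM, whether the 3 wells of a time point were pooled, and the number of cell preparations are not in the labels. With a single course per genotype at each temperature, an effect of temperature cannot be told apart from one of culture or run. Nor can an effect of genotype be told apart from a difference between cell preparations, whose number is not known. All p-values reflect how libraries within a course scatter, not how cell preparations do.

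The estimated depth was 9.91 to 32.2 M reads per library, with a median of 23.5 M. All 10 fibroblast markers (among them Col1a1, Pdgfra and Vim) had means of at least 1 FPKM in every course. The gene-level value of Arntl, the gene of BMAL1, does not check the knockout: its lowest, median and highest values were 4.52, 7.06 and 9.26 FPKM in 105 Bmal1KO libraries, against 2.81, 6.26 and 10.2 FPKM in 105 WT libraries, and a deletion of part of a gene can leave such values in place. The 2 libraries of CT14 (circadian time, in h) at 27 °C went against their labels and were left out, leaving 210 libraries. The CT14 library labelled Bmal1KO had 3.87 FPKM of the cell cycle inhibitor Cdkn1a, where the other Bmal1KO libraries at 27 °C had 97.8 to 136 FPKM, and the one labelled WT had 109 FPKM, where the other WT libraries had 3.07 to 7.12 FPKM. Lysosomal genes went the same way: Ctsl was at 1680 FPKM in the CT14 library labelled Bmal1KO and at 554 FPKM in the one labelled WT.

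The results below turn in part on 5 genes whose promoter windows hold TCACGTGA, the inner bases of the TFEB palindrome, so these stretches are shown first. They come from RefSeq windows of 250 bases before to 50 after the start of each gene on build GRCm38.p6, in which 32 of the 37 genes had an entry (Ctsb, Asah1, Npc1, Ctsh and Atp6v1h had none). Capitals mark the motif. The stretches are chr2:164833735-164833797 (plus strand) for Ctsa, which encodes cathepsin A, and chr7:142387894-142387951 (minus strand) for Ctsd, which encodes cathepsin D. They are chr8:3500448-3500505 (plus strand) for Mcoln1, the gene of the calcium channel TRPML1, chr8:105566040-105566093 (minus strand) for Atp6v0d1, the gene of a pump subunit, and chrX:134601168-134601255 (minus strand) for Gla, the gene of alpha-galactosidase A.
Ctsa: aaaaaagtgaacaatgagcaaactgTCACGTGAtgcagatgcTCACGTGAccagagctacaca
Ctsd: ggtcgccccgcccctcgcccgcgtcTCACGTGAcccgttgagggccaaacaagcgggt
Mcoln1: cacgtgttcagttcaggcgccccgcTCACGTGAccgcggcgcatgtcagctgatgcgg
Atp6v0d1: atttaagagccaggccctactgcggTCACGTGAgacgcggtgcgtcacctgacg
Gla: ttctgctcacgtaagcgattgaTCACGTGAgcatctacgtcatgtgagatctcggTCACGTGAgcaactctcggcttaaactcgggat
Gla and Ctsa hold the motif at 2 positions each. The 5 genes are 15.6% of the 32, where 1.12% of the 27025 genes in the RefSeq table hold TCACGTGA in a window of the same length. Of 48 other proton pump and lysosomal genes with a window, 12.5% hold it, so the share is not particular to the genes described here. The motif is its own reverse complement, so each match counts for both strands, and every match also holds CACGTG.

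The shorter E-box CACGTG was in 11 of the 32 genes (34.4%), against 20.8% of the 48 other proton pump and lysosomal genes and 8.09% of all genes in the table. Its capitals are shown for a stretch of Lamp1, a main glycoprotein of the lysosomal membrane, at chr8:13159075-13159176 (plus strand), because it holds 4 copies, and for Naglu, Lgmn and Ctsl, because their levels differed between the genotypes. Of the other genes past 2-fold between the genotypes, Gpnmb, Man2b1 and Cd68 hold no CACGTG in their windows, and Ctsh has no window. The other holders, among them Lamp1, Glb1, Ctsa and Ctsd, were not called between the genotypes. A link between the E-box and these differences was not tested. The stretch of Naglu is chr11:101069996-101070051 (plus strand), that of Lgmn chr12:102439111-102439166 (minus strand) and that of Ctsl chr13:64370726-64370770 (minus strand).
Lamp1: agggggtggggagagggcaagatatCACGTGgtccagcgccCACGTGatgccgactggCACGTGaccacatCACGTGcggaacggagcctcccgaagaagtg
Naglu: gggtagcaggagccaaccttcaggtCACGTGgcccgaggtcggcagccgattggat
Lgmn: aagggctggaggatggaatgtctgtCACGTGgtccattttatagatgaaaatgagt
Ctsl: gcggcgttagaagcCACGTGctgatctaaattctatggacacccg
The full 10-base palindrome GTCACGTGAC was in none of the 32 genes and in 0.37% of all genes. A match is a description of letters in a window, and no factor was mapped to these sites here.

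Across all courses the lysosomal transcripts were abundant. The 37 genes together made up 0.826% of the summed FPKM in Bmal1KO cells at 32 °C, the lowest course, and 1.5% in WT cells at 37 °C, the highest. Psap, which encodes the precursor of the saposins that help lipid hydrolases, or Ctsl, the gene of the cysteine protease cathepsin L, had the highest mean in every course, at 866 FPKM (Psap, Bmal1KO, 27 °C) to 1556 FPKM (Ctsl, WT, 27 °C). The lowest mean of a course was below 2 FPKM in 9 of the 10 courses and belonged to Cd68 or Gpnmb, and in Bmal1KO cells at 27 °C it was Tfeb at 6.95 FPKM. Level differences below are log2(FPKM + 1) values from a limma fit over all genes, which understates changes of genes near 1 FPKM, and a gene was called where the adjusted p was under 0.05 and the difference reached 2-fold. Counts at an unadjusted p under 0.05 by limma come without the share of all genes and do not set the 37 genes apart. Over 13 level comparisons, 14 of the 37 genes were called in at least 1 (37.8%), against 35.7% of all genes tested. They were 4 of 9 proteases, 5 of 8 glycosidases, 1 of 6 genes of lipid breakdown and cholesterol export, 3 of 7 membrane proteins, 1 of 3 pump subunits, neither TFEB nor TFE3, and neither Sqstm1 nor Grn. The other 23 genes were called in none of the 13.

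**Figure D1:**
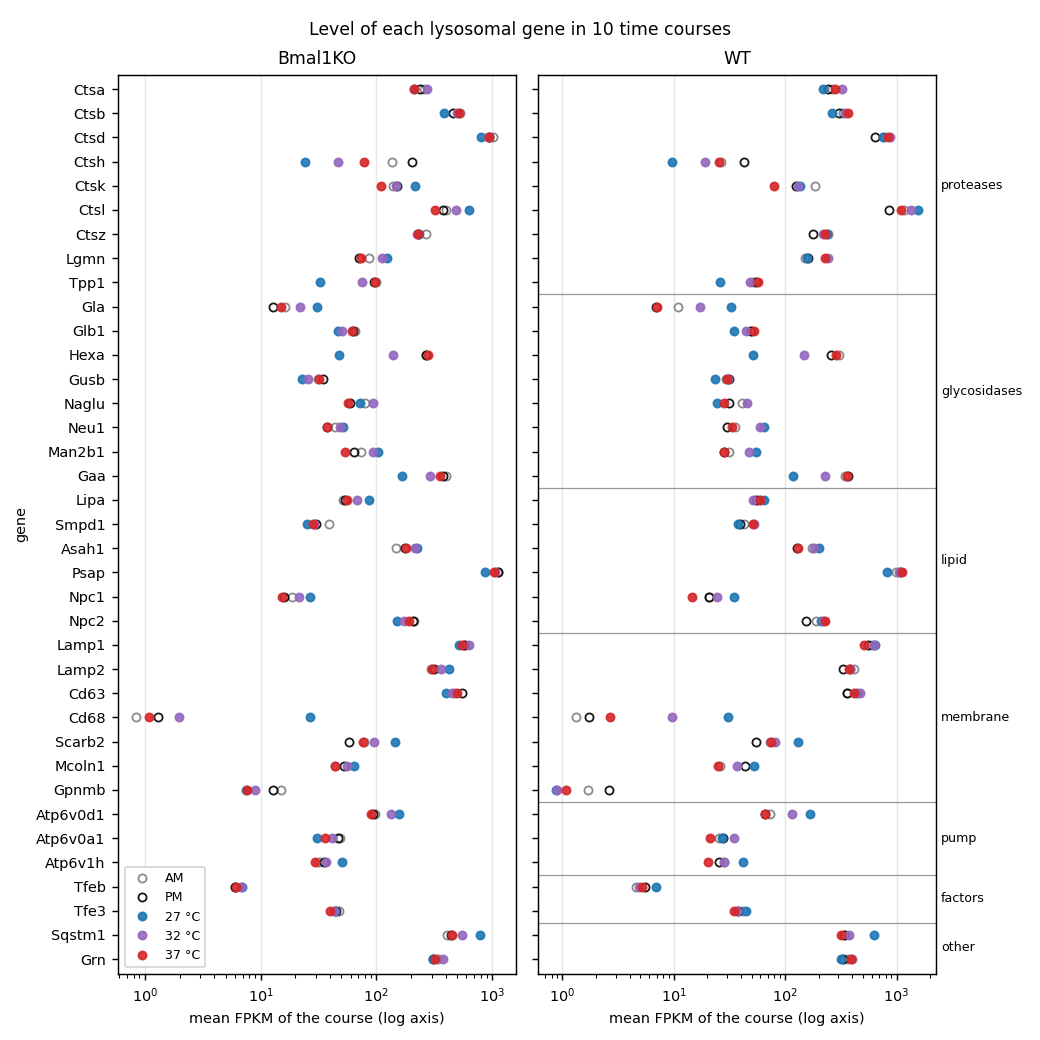
Mean FPKM (log axis) of the 37 lysosomal genes in each time course, with Bmal1KO on the left, WT on the right, 1 colour per course and the genes grouped by role. Psap and Ctsl sit at the top, and the course means of Cd68 spread most widely, between 0.848 and 30.6 FPKM.

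Between the genotypes, Gpnmb and Ctsh were higher and Ctsl was lower in Bmal1KO cells in all 5 conditions. Naglu was higher at each temperature, Man2b1 was higher in AM and PM, and Lgmn was lower in PM and at 32 and 37 °C. In AM and PM together, 3 of 37 genes were higher (7.01% of all genes tested) and 1 was lower (7.53%). In the temperature courses together, 3 were higher (5.92%) and 2 were lower (7.01%). These shares are near the background. The median difference of the 37 genes was 0.22 in AM and PM, where the median of all genes was -0.00, and 0.14 over the temperatures, where that of all genes was -0.02. At a wider limit of 1.5-fold, 8 genes were higher and 2 lower in AM and PM (14.5% and 15.7% of all genes), and 4 were higher and 4 lower over the temperatures (13.6% and 15.8%). Groups without overlap were common over all genes. In AM, 10 of 37 genes were higher and 3 lower without overlap (17.5% and 16.7% of all genes). In PM these counts were 13 and 3 (17.5% and 18%). They were 5 and 2 at 27 °C (13.9% and 14.9%), 8 and 5 at 32 °C (17.7% and 19.4%), and 11 and 3 at 37 °C (13.9% and 15.9%).

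Among the proteases, Ctsh, which encodes the aminopeptidase cathepsin H (chr9:90054152-90076089, plus strand, GRCm38), was higher in Bmal1KO cells. In PM it had lowest, median and highest values of 174, 203 and 257 FPKM in Bmal1KO libraries, against 34.2, 43.1 and 49.9 FPKM in WT libraries. In AM the values were 102, 135 and 171 FPKM in Bmal1KO and 19.8, 25.7 and 35.6 FPKM in WT. Every Bmal1KO library of a course lay above every WT library of that course, here and at each temperature. At 27 °C the level was lower in both genotypes, with 17.6, 24.2 and 30.5 FPKM in Bmal1KO and 6.44, 9.42 and 14.7 FPKM in WT. At 37 °C it was 64.1, 78.7 and 95.6 FPKM in Bmal1KO and 16.3, 26.7 and 37.0 FPKM in WT. The log2 difference was 2.28 ± 0.04 (SE) in AM and PM (limma, adjusted p = 3.34e-51) and 1.37 ± 0.03 over the temperatures (adjusted p = 2.07e-84).

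Ctsl (chr13:64359337-64370890, minus strand) was lower in Bmal1KO cells in all 5 conditions. In AM its lowest, median and highest values were 363, 399 and 493 FPKM in Bmal1KO, against 1042, 1157 and 1319 FPKM in WT. In PM they were 346, 366 and 410 FPKM in Bmal1KO and 768, 852 and 947 FPKM in WT. The groups did not overlap in any of these conditions. At 37 °C the values were 285, 316 and 381 FPKM in Bmal1KO and 982, 1083 and 1289 FPKM in WT, and at 27 °C they were 411, 599 and 820 FPKM in Bmal1KO and 1263, 1594 and 1932 FPKM in WT. The log2 difference was -1.36 ± 0.02 in AM and PM (limma, adjusted p = 6.23e-52) and -1.52 ± 0.01 over the temperatures (adjusted p = 6.45e-121). An annotated antisense gene, Gm47123, shares 26.9% of the exonic bases of Ctsl, and the sources used here do not give whether counting used strand. The printed Ctsl promoter stretch holds 1 E-box.

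Lgmn (chr12:102394084-102439813, minus strand) encodes legumain, the asparaginyl endopeptidase that processes cathepsins. At 37 °C it had 61.4, 72.5 and 88.2 FPKM in Bmal1KO libraries, against 198, 231 and 252 FPKM in WT libraries, with no overlap. In PM it had 60.9, 71.0 and 76.9 FPKM in Bmal1KO and 141, 162 and 185 FPKM in WT, again with no overlap. The difference was smaller in AM (-0.78) than the 2-fold limit. Over the temperatures it was -1.02 ± 0.02 (limma, adjusted p = 6.27e-97), and 1 of the 5 conditions, 27 °C, had overlapping groups, at 81.3, 122 and 149 FPKM in Bmal1KO and 127, 157 and 195 FPKM in WT. Of the other proteases, Tpp1 (tripeptidyl peptidase 1) and Ctsb (cathepsin B) were higher by 0.86 and 0.64 in AM and PM, below 2-fold.

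The glycosidases that differed were higher in Bmal1KO cells. Naglu (chr11:101070012-101077672, plus strand), the alpha-N-acetylglucosaminidase of heparan sulfate breakdown, had 49.5, 74.1 and 89.7 FPKM in Bmal1KO at 27 °C, against 19.7, 24.7 and 29.9 FPKM in WT. At 32 °C it had 84.3, 94.5 and 106 FPKM in Bmal1KO and 33.4, 45.5 and 59.5 FPKM in WT, and at 37 °C 42.7, 57.7 and 68.8 FPKM in Bmal1KO and 22.1, 28.7 and 33.9 FPKM in WT. No Bmal1KO library overlapped a WT library of its temperature. The log2 difference was 1.19 ± 0.02 over the temperatures (limma, adjusted p = 6.61e-93) and 0.93 in AM and PM, below the limit. Man2b1 (chr8:85083270-85098282, plus strand), the lysosomal alpha-mannosidase, had 66.3, 74.7 and 83.8 FPKM in Bmal1KO in AM, against 26.7, 31.4 and 37.7 FPKM in WT. In PM it had 53.2, 62.3 and 77.0 FPKM in Bmal1KO and 23.8, 27.2 and 32.9 FPKM in WT. It did not overlap between the genotypes in either course and differed by 1.18 ± 0.02 (limma, adjusted p = 3.16e-52), whereas over the temperatures its difference of 0.93 missed the limit.

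Of the membrane proteins, Gpnmb (chr6:49036546-49070929, plus strand), a glycoprotein of lysosomes and melanosomes, was the gene with the largest positive difference over the temperatures. It had 10.7, 13.9 and 19.7 FPKM in Bmal1KO in AM, against 0.778, 1.48 and 3.87 FPKM in WT. At 27 °C it had 3.97, 7.24 and 11.8 FPKM in Bmal1KO and 0.372, 0.926 and 1.55 FPKM in WT, and at 37 °C 5.02, 7.56 and 10.0 FPKM in Bmal1KO and 0.548, 1.04 and 1.81 FPKM in WT. The genotypes did not overlap in any condition, and the log2 difference was 2.28 ± 0.05 in AM and PM (limma, adjusted p = 8.56e-45) and 2.21 ± 0.04 over the temperatures (adjusted p = 1.70e-90). Melanocytes and macrophages also express Gpnmb, so their markers were read beside it. The summed FPKM of 7 melanocyte markers had course medians of 2.31 to 6.05 in Bmal1KO and 10.2 to 27.2 in WT, and Mitf, the melanocyte factor among them, had means of 0.53 to 4.40 FPKM in Bmal1KO and 3.82 to 16.7 FPKM in WT. Pmel, which encodes a melanosome protein of the same list, had higher course means in Bmal1KO in all 5 conditions, at 1.009 to 1.505 FPKM in Bmal1KO and 0.598 to 0.785 FPKM in WT. Mlana, also of that list, had means of 0.092 to 0.286 FPKM in Bmal1KO and 5.71 to 16 FPKM in WT. The remaining markers, Tyr, Dct, Tyrp1 and Sox10, had course means of at most 0.0087, 0.0144, 0.0414 and 0.0034 FPKM. The 17 macrophage markers summed to medians of 18.2 FPKM in Bmal1KO AM and 12.3 FPKM in WT AM, and to 11.7 FPKM in Bmal1KO and 11.3 FPKM in WT at 37 °C. C1qa was at 0 in every course, Adgre1, Ptprc and Tyrobp had means of at most 0.0018, 0.0061 and 0.018 FPKM, and the largest part of the sum was Cd14, with course means of 8.93 to 16.2 FPKM in Bmal1KO and 4.22 to 12.2 FPKM in WT, beside Lyz2 at 0.326 to 0.874 FPKM in Bmal1KO and 1.5 to 4.96 FPKM in WT. The part of either cell type in the Gpnmb difference was not tested, and in bulk RNA fewer cells of a type and less RNA per cell cannot be told apart.

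Cd68 (chr11:69664213-69666153, minus strand), a sialomucin of the lysosomal membrane best known as a macrophage marker, differed between the genotypes past 2-fold at 32 °C, of the 5 conditions. It had 0.843, 1.92 and 3.42 FPKM in Bmal1KO libraries, against 5.95, 8.93 and 14.9 FPKM in WT libraries, without overlap (-1.83; limma, adjusted p = 2.04e-52). Condition by condition, the calls were 3 higher and 1 lower in AM (6.86% and 7.78% of all genes), 3 and 2 in PM (7.35% and 8.23%), 3 and 1 at 27 °C (6.38% and 7.08%), 3 and 3 at 32 °C (6.96% and 7.59%), and 3 and 2 at 37 °C (6.22% and 7.69%). None of the 6 genes of lipid breakdown, the 3 pump subunits, Sqstm1 or Grn was called between the genotypes in any condition.

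**Figure D2:**
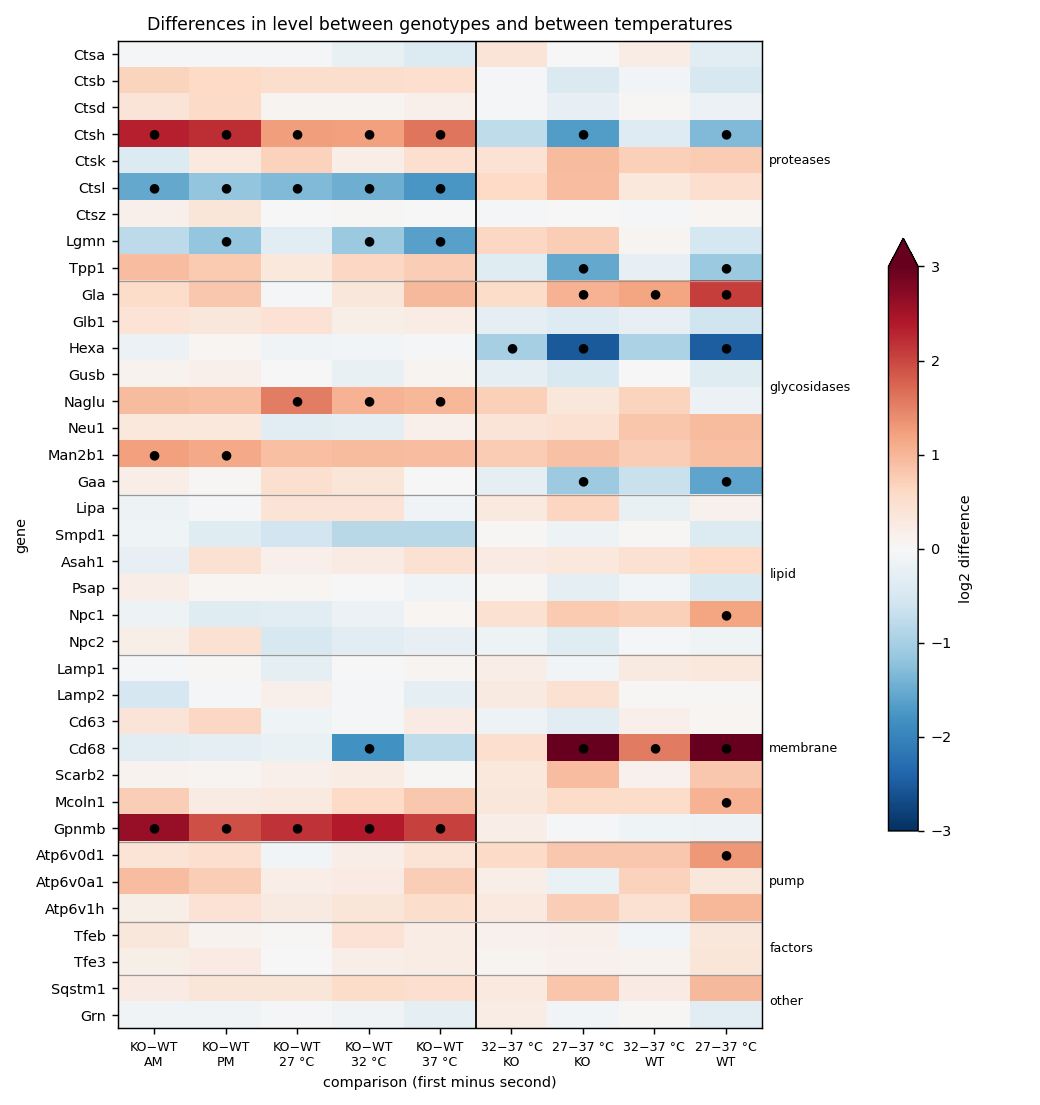
Log2 differences of the 37 lysosomal genes in 9 comparisons (Bmal1KO minus WT in AM, PM and at 27, 32 and 37 °C; 32 °C minus 37 °C and 27 °C minus 37 °C in each genotype), coloured from -3 to 3, with dots on the 2-fold calls. Gpnmb, Ctsh and Ctsl carry dots in every genotype column, and Cd68, Gla and Hexa in both columns of 27 °C minus 37 °C.

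With temperature, Cd68 and Gla were higher and Hexa, Gaa, Ctsh and Tpp1 lower at 27 °C in both genotypes. In Bmal1KO cells, 2 of 37 genes were higher at 27 °C than at 37 °C (7.64% of all genes) and 4 were lower (4.04%). In WT cells, 5 were higher (8.38%) and 4 were lower (5.21%). At 1.5-fold, 12 were higher and 4 lower in Bmal1KO (23.9% and 10.1%), and 12 higher and 5 lower in WT (24.9% and 11.8%). Without overlap of the temperatures, 11 were higher and 5 lower in Bmal1KO (23.1% and 8.29% of all genes). In WT, 11 were higher and 8 lower without overlap (25.1% and 10.1%). The median of all genes was shifted upward at 27 °C by 0.21 in both genotypes, and by 0.13 at 32 °C, while the 37 genes had medians of 0.14 in Bmal1KO and 0.07 in WT at 27 °C. After median-of-ratios scaling, which removes the shift, the 37 genes had medians of -0.10 in Bmal1KO and -0.18 in WT, with 1 higher and 4 lower in Bmal1KO and 3 higher and 4 lower in WT. Over all genes that scaling turned the split in Bmal1KO to 570 higher and 791 lower, where it was 995 higher and 527 lower without it, and in WT to 620 higher and 996 lower, where it was 1092 higher and 679 lower.

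Cd68 showed the largest change with temperature. In Bmal1KO cells it had lowest, median and highest values of 16.8, 24.4 and 39.9 FPKM at 27 °C, against 0.392, 1.06 and 1.97 FPKM at 37 °C, and in WT cells 23.4, 30.4 and 39.4 FPKM at 27 °C against 1.19, 2.37 and 5.61 FPKM at 37 °C. Every library at 27 °C lay above every library at 37 °C of its genotype. The log2 difference was 3.73 ± 0.07 in Bmal1KO (limma, adjusted p = 2.96e-85) and 3.16 ± 0.07 in WT (adjusted p = 2.03e-77). The macrophage markers, of which 1 to 3 of 17 had a mean of at least 1 FPKM in a course, summed to medians of 11.8 FPKM (range 9.37 to 15.3) at 27 °C and 11.7 FPKM (9.19 to 14.5) at 37 °C in Bmal1KO, and 14.3 FPKM (11.6 to 16.4) at 27 °C and 11.3 FPKM (8.18 to 13.6) at 37 °C in WT. Single markers in that sum moved in opposite directions in WT. Cd14 had a mean of 12.2 FPKM at 27 °C and 5.42 FPKM at 37 °C there, and Lyz2 had 1.5 FPKM at 27 °C and 4.96 FPKM at 37 °C. In Bmal1KO, Cd14 had 10.2 FPKM at 27 °C and 10.6 FPKM at 37 °C, and Csf1r 1.08 and 0.41 FPKM. No other annotated gene shares exonic bases with Cd68.

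Gla (chrX:134588149-134601125, minus strand), the gene of the enzyme deficient in Fabry disease, had 23.7, 31.5 and 38.8 FPKM at 27 °C in Bmal1KO against 8.82, 14.9 and 20.5 FPKM at 37 °C, and 24.5, 32.6 and 47.5 FPKM at 27 °C in WT against 4.60, 6.85 and 10.8 FPKM at 37 °C. The libraries of the 2 temperatures did not overlap in either genotype, and the medians of Bmal1KO and WT lay nearer each other at 27 °C than at 37 °C. The difference was 1.04 ± 0.06 in Bmal1KO (limma, adjusted p = 2.08e-33), which fell to 0.81 and below the limit after median-of-ratios scaling, and 2.07 ± 0.06 in WT (adjusted p = 9.76e-63). In WT cells 3 more genes were higher at 27 °C. Atp6v0d1 had 147, 167 and 180 FPKM at 27 °C and 58.0, 66.5 and 74.8 FPKM at 37 °C (1.31 ± 0.02). Npc1, which exports cholesterol from lysosomes, had 29.1, 33.6 and 39.4 FPKM at 27 °C and 12.1, 14.6 and 17.4 FPKM at 37 °C (1.18 ± 0.03), and Mcoln1 had 45.2, 53.3 and 64.4 FPKM at 27 °C and 17.4, 25 and 30.4 FPKM at 37 °C (1.05 ± 0.04). None of these groups overlapped, and Npc1 and Mcoln1 lost the call after median-of-ratios scaling, at 0.95 and 0.82. Of the 2 genes called higher at 27 °C than at 37 °C in Bmal1KO, both with a promoter window, Gla holds the printed TCACGTGA, as do 4 of the other 30. Of the 4 genes called higher at 27 °C in WT that had a window, 3 (Atp6v0d1, Gla and Mcoln1) hold it, as do 2 of the other 28, Ctsa and Ctsd.

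Hexa (chr9:59539540-59565109, plus strand), which encodes the alpha subunit of the beta-hexosaminidase lacking in Tay-Sachs disease, fell most in the cold. It had 34.9, 47.4 and 56.7 FPKM at 27 °C in Bmal1KO against 228, 272 and 359 FPKM at 37 °C, and 41.8, 51.5 and 63.1 FPKM at 27 °C in WT against 242, 292 and 328 FPKM at 37 °C. The ranges were far apart, and the differences were -2.53 ± 0.03 in Bmal1KO (limma, adjusted p = 2.84e-104) and -2.48 ± 0.03 in WT (adjusted p = 2.45e-103). Gaa, the acid alpha-glucosidase that degrades glycogen, had 111, 168 and 206 FPKM at 27 °C in Bmal1KO against 303, 357 and 407 FPKM at 37 °C, and 98.2, 117 and 149 FPKM at 27 °C in WT against 331, 354 and 384 FPKM at 37 °C. Tpp1 had 26.7, 32.4 and 40.5 FPKM at 27 °C in Bmal1KO against 86.5, 95.5 and 109 FPKM at 37 °C, and 21.3, 25.9 and 30.9 FPKM at 27 °C in WT against 51.0, 57.4 and 66.8 FPKM at 37 °C. With Ctsh, which fell by 1.67 in Bmal1KO and by 1.32 in WT, all 4 were lower in every library at 27 °C than in any library at 37 °C. Hexa shares 12.8% of its exonic bases with Tmem202 on the opposite strand.

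At 32 °C the medians of Cd68, Gla and Hexa lay between those at 27 and 37 °C. In Bmal1KO, none of 37 was higher than at 37 °C (1.77% of all genes; 25 had an unadjusted p under 0.05 by limma) and 1 was lower (0.944%), Hexa, with 116, 140 and 149 FPKM at 32 °C (-1.0 ± 0.03). Hexa in WT had 113, 150 and 179 FPKM at 32 °C and missed the limit at -0.95. In WT, 2 of 37 were higher (1.93%), Cd68 with a median of 8.93 FPKM at 32 °C (1.56 ± 0.07) and Gla with one of 17.2 FPKM (1.19 ± 0.06), and none was lower (1.37%; 10 had an unadjusted p under 0.05). At 1.5-fold, 4 genes were higher and 2 lower at 32 °C in Bmal1KO (7.87% and 3.15% of all genes), and 9 higher and 2 lower in WT (8.96% and 4.44%).

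**Figure D3:**
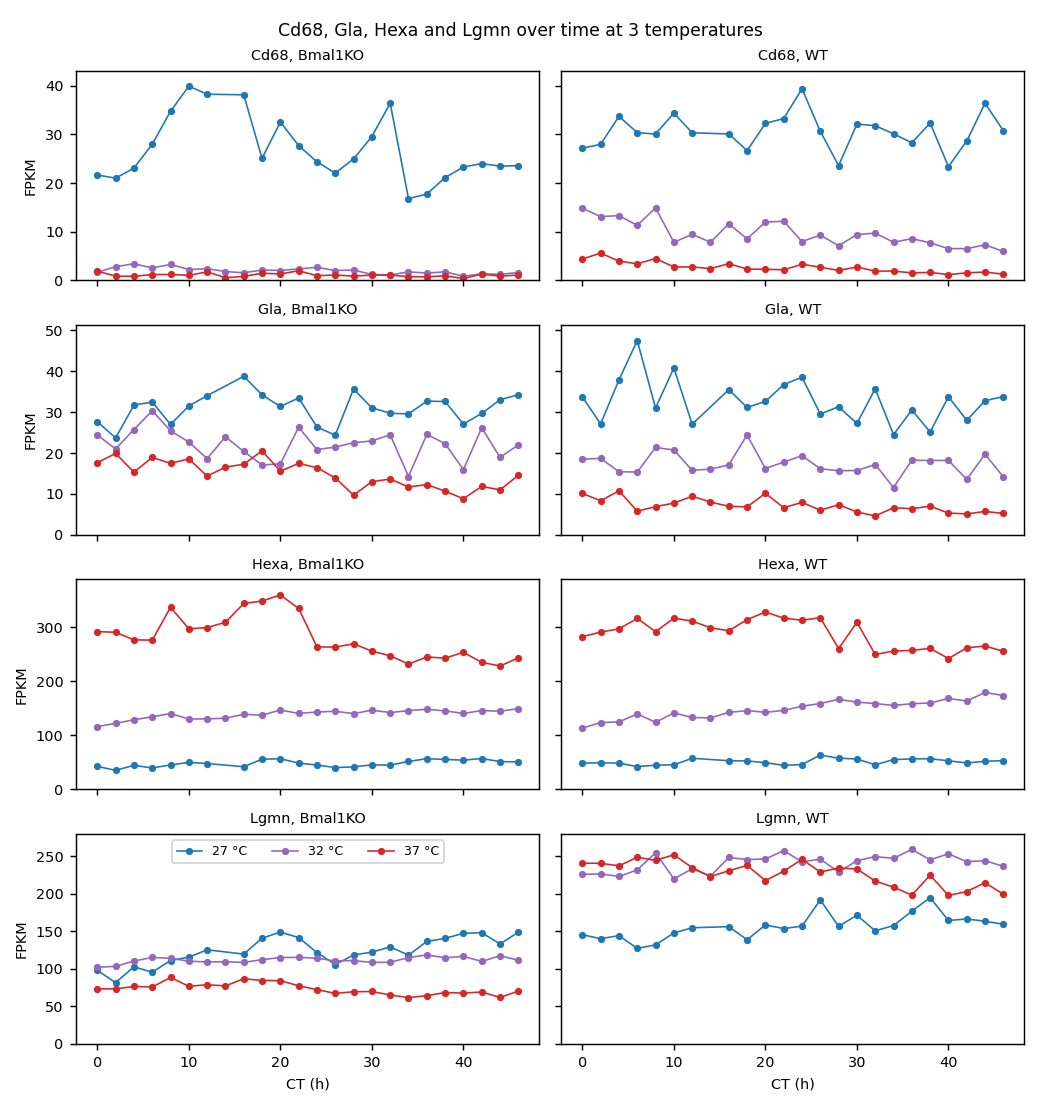
FPKM of Cd68, Gla, Hexa and Lgmn by circadian time (CT, h), with Bmal1KO in the left column, WT in the right and 1 line per temperature. Cd68 and Gla lie highest at 27 °C and Hexa highest at 37 °C throughout the courses, and Lgmn at 37 °C lies below 100 FPKM in Bmal1KO and near 231 FPKM in WT.

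The response to cold differed past 2-fold between the genotypes for 2 genes, by the interaction contrast (the change at 27 °C in Bmal1KO minus that in WT): 1 of 37 was higher (2.74% of all genes) and 1 lower (1.67%). Without the 2-fold limit, 14 were higher and 17 lower at an unadjusted p under 0.05 by limma. The difference of Lgmn at 27 °C from 37 °C was 0.74 in Bmal1KO and -0.54 in WT, an interaction of 1.28 ± 0.04 (limma, adjusted p = 4.09e-62). That of Gla was 1.04 in Bmal1KO and 2.07 in WT, an interaction of -1.03 ± 0.09 (adjusted p = 2.00e-21). Every Lgmn library at 27 °C lay below every one at 37 °C in WT, whereas the 2 temperatures overlapped in Bmal1KO. At 1.5-fold the same counts held, 1 higher and 1 lower (8.01% and 6.13% of all genes).

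Between PM and AM, no lysosomal gene was called in either genotype (0.519% of all genes higher and 0.646% lower in Bmal1KO, 1.61% and 0.774% in WT), although 26 genes in Bmal1KO and 33 in WT had an adjusted p under 0.05 by limma. At an unadjusted p under 0.05, 10 were higher and 17 lower in Bmal1KO, and 11 higher and 22 lower in WT. The shares of all genes at these limits are not given, so these counts do not set the lysosomal genes apart. In WT, Mcoln1 and Ctsh were higher by 0.73 and 0.68, and Ctsk, the collagen-degrading cathepsin K, was lower at -0.61, each with overlapping groups. These were the genes past 1.5-fold, where all genes had 6.3% higher and 1.92% lower in WT, while in Bmal1KO none of 37 was past it (2.99% higher and 1.8% lower). The factors Tfeb and Tfe3 were not called in any of 14 comparisons, with differences of at most 0.43 and 0.37 in size, of which that of Tfe3 at 27 °C in Bmal1KO was 0.14 and turned to -0.10 after median-of-ratios scaling. The course means of Tfeb were highest at 6.95 FPKM (Bmal1KO, 27 °C) and lowest at 4.57 FPKM (WT, AM), and those of Tfe3 were highest at 47.4 FPKM (Bmal1KO, AM) and lowest at 34.4 FPKM (WT, 37 °C). These are transcript levels, and where in the cell the proteins lay was not measured.

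Within the courses, more lysosomal genes rose than fell with time at 27 °C, and more fell than rose at 37 °C, in both genotypes. The linear term of the limma fit, given as log2 change per 24 h, rose for 18 of 37 genes in Bmal1KO at 27 °C and fell for 2 (11.4% and 11.7% of all genes), and it rose for 20 and fell for 1 in WT (19.8% and 17%). At 32 °C, 11 rose and 4 fell in Bmal1KO (8.27% and 7.33%), and 14 rose and 4 fell in WT (14.9% and 15.3%). At 37 °C, none rose and 24 fell in Bmal1KO (15.4% and 21.8%), and 2 rose and 21 fell in WT (10.3% and 16.3%). The median change per 24 h was 0.09 in Bmal1KO and 0.11 in WT at 27 °C, and -0.15 in Bmal1KO and -0.13 in WT at 37 °C. Over all genes it was 0.00 in Bmal1KO and 0.01 in WT at 27 °C, and -0.01 in both at 37 °C.

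The trend at 27 °C minus that at 37 °C passed the test upward for 26 of 37 genes and downward for 1 in Bmal1KO (17.9% and 13% of all genes), and upward for 26 and downward for 2 in WT (19.1% and 13.2%). Its median was 0.28 in Bmal1KO and 0.24 in WT, where all genes had 0.02 in both. In both genotypes 7 genes rose at 27 °C and fell at 37 °C (0.591% of all genes): Ctsa, Ctsb, Lgmn, Tpp1, Man2b1, Npc2, which carries cholesterol to Npc1, and Grn, which encodes progranulin. Man2b1 rose by 0.51 per 24 h in Bmal1KO and by 0.45 in WT at 27 °C, while at 37 °C it fell by 0.12 in Bmal1KO and by 0.18 in WT. Its lowest library at 27 °C was CT2 in Bmal1KO (56.3 FPKM) and CT0 in WT (37.3 FPKM), and its highest was CT42 in Bmal1KO (144 FPKM) and CT26 in WT (68.7 FPKM). Ctsa rose by 0.12 in Bmal1KO and by 0.23 in WT at 27 °C and fell by 0.36 and 0.23 at 37 °C, and Grn rose by 0.15 in Bmal1KO and by 0.22 in WT at 27 °C and fell by 0.33 and 0.24 at 37 °C. By role, 8 of 9 proteases rose at 27 °C in each genotype, and 7 of 8 glycosidases fell at 37 °C in each. Ctsh was an exception in WT, where it rose at 37 °C by 0.45.

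In AM and PM, too, more lysosomal genes fell than rose. In AM none of 37 rose and 16 fell in Bmal1KO (3.52% and 4% of all genes), and 2 rose and 13 fell in WT (5.77% and 7.56%). In PM none rose and 8 fell in Bmal1KO (2.94% and 1.94%), and 1 rose and 13 fell in WT (9.03% and 8.35%). At an unadjusted p under 0.05 by limma, 1 gene rose in Bmal1KO in AM, 2 in PM and 0 at 37 °C. Ctsa and Grn fell in all 6 of these courses, which was true of 0.203% of all genes. Gpnmb and Ctsh rose in WT in AM, and Gpnmb also rose in WT in PM.

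**Figure D4:**
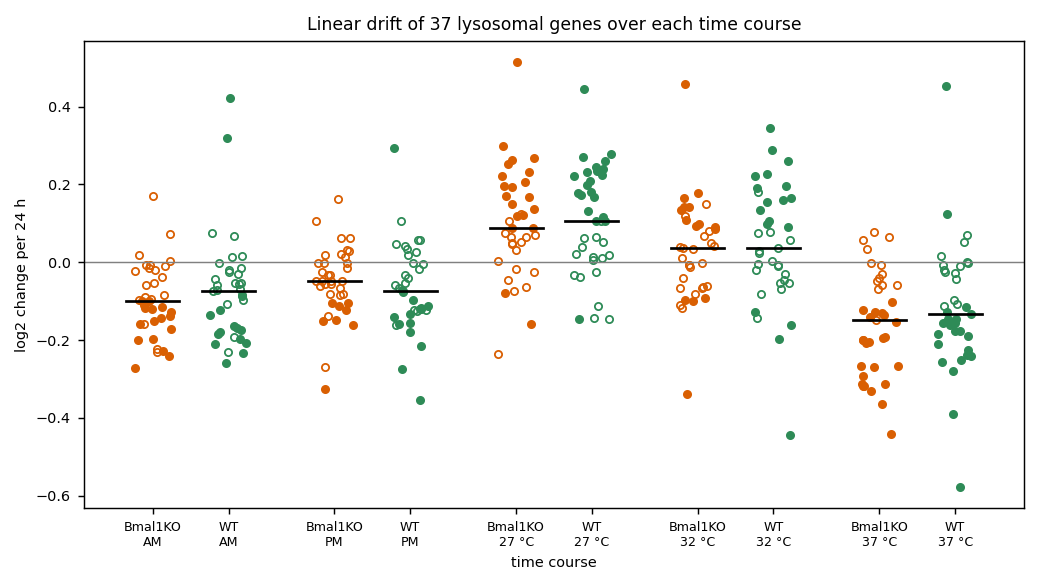
Log2 change per 24 h of each lysosomal gene in the 10 courses, with filled points for genes that passed the test and bars at the medians. The medians lie above 0 at 27 °C (0.09 in Bmal1KO, 0.11 in WT) and below 0 at 37 °C (-0.15 in Bmal1KO, -0.13 in WT).

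A straight line is not the whole shape. In Bmal1KO at 37 °C, the median deviation of the 37 genes from their own course means was 0.034 to 0.18 from CT0 to CT22 and -0.18 to -0.027 from CT24 to CT46, with 24 genes above their mean at CT22 and 7 at CT24. At 27 °C in Bmal1KO the median was -0.31 at CT2, 0.089 to 0.21 at CT18 to CT22, -0.14 at CT26 and 0.063 to 0.20 from CT36 to CT46. The first of these is a step between adjacent libraries, and the second a rise with a dip in the middle.

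**Figure D5:**
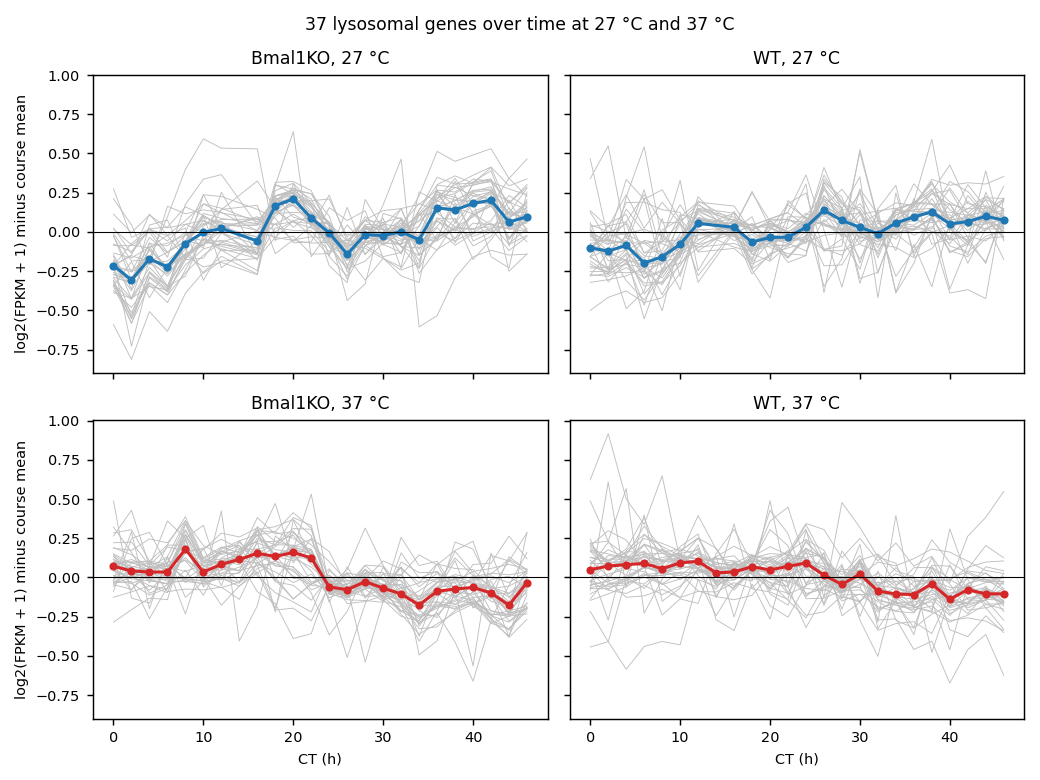
Log2(FPKM + 1) minus the mean of its course for each lysosomal gene (grey lines) and their median (coloured) by circadian time, with 27 °C above 37 °C, Bmal1KO on the left and WT on the right. The median in Bmal1KO at 27 °C dips to -0.31 at CT2 and -0.14 at CT26, and that in Bmal1KO at 37 °C stays below 0 from CT24 on.

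A 24 h component was tested within each course as a cosine and sine beside the linear term, by the moderated F test of limma. It was most frequent in Bmal1KO cells at 27 °C, where 20 of 37 genes passed (9.85% of all genes). In WT at 27 °C none of 37 passed (2.15%), 6 had an unadjusted p under 0.05, and the smallest adjusted p by limma was 0.0955, for the tetraspanin gene Cd63. The 20 peaked between CT15.4 and CT18.0, with amplitudes (log2, mid-level to peak) of 0.086 to 0.28. They were 8 of 9 proteases, 5 of 8 glycosidases, 2 of 6 genes of lipid breakdown and cholesterol export, 2 of 7 membrane proteins, 2 of 3 pump subunits and Grn, with neither Tfeb nor Tfe3 among them.

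Psap had the smallest p of the 20. In Bmal1KO at 27 °C its lowest, median and highest values were 597, 815 and 1085 FPKM, the lowest at CT2 and the highest at CT36, and it had an amplitude of 0.17 ± 0.02 (SE) with a peak at CT16.6 (limma, adjusted p = 8.25e-08). Ctsl had an amplitude of 0.17 and a peak at CT16.9 (adjusted p = 8.91e-06), Man2b1 0.17 and CT16.4 (2.13e-05), and Ctsb, the gene of cathepsin B, 0.15 and CT16.3 (1.02e-04). The 24 h terms differed between Bmal1KO and WT at 27 °C for 5 of 37 genes (1.5% of all genes): Tpp1, Psap, Man2b1, Gpnmb and Gaa. Of the 20 genes, 17 had their lowest library at CT2. Without that library 18 of 37 genes passed (8.4% of all genes), and without those of CT0 and CT2, 21 did (9.1%), both chosen after the data were seen. With the CT14 libraries kept as labelled, 12 did (9.23%).

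At 37 °C, 8 of 37 genes passed in Bmal1KO (8.46% of all genes), namely Ctsz, Ctsb, Smpd1, Ctsd, Hexa, Lamp1, Glb1 and Sqstm1, with peaks at CT16.1 to CT19.3 and amplitudes of 0.076 to 0.13. Beside a straight line, a cosine and sine can also take up a step such as that between CT22 and CT24 in this course. The median deviation of the 37 genes was 0.13 at CT18 and -0.099 at CT42, so these calls do not show a repeated cycle. With a quadratic time term, added after the drift was seen, 16 passed (16.5%). Ctsb, Ctsd, Ctsz, Glb1, Hexa and Lamp1 passed at both 27 and 37 °C, as did 2.17% of all genes. Because of the step at 37 °C, passing in both does not show a daily rhythm shared by the courses. In WT at 37 °C the 2 that passed (4.92% of all genes; 8, or 9.7%, with the quadratic term) were the factors, Tfeb with an amplitude of 0.25 and a peak at CT4.1 (limma, adjusted p = 0.0207) and Tfe3 with 0.16 and CT22.0 (adjusted p = 0.0216). Tfeb had 3.42, 4.82 and 8.28 FPKM in that course, lowest at CT40 and highest at CT2, and Tfe3 had 27.1, 35.3 and 42.4 FPKM, lowest at CT36 and highest at CT20. The 24 h terms at 37 °C differed between the genotypes for Sqstm1 and Tfeb (6.1% of all genes). At 32 °C, 1 gene passed in Bmal1KO (2.06%), Mcoln1 with a peak at CT4.8, and none of 37 in WT (0.253%), where 3 had an unadjusted p under 0.05 by limma.

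In PM, 6 of 37 genes passed in each genotype (3.02% of all genes in Bmal1KO, 5.61% in WT), and 5 of them, Gaa, Man2b1, Npc1, Psap and Tpp1, passed in both, as did 1.01% of all genes. Their peaks were close: CT4.7 to CT5.4 for the 6 in Bmal1KO and CT5.0 to CT5.8 for the 6 in WT. Tpp1 had 86.7, 93.7 and 110 FPKM in Bmal1KO in PM and 48.1, 55.8 and 59.5 FPKM in WT, with an amplitude of 0.09 in Bmal1KO (limma, adjusted p = 0.0266) and 0.10 in WT (adjusted p = 0.00990). The median deviation of all 37 genes in Bmal1KO in PM was 0.055 to 0.17 from CT0 to CT12 and -0.081 to -0.0052 from CT15 to CT48. It did not rise above 0 again a day later, so the PM calls in Bmal1KO do not show a repeated cycle. Passing in both genotypes therefore does not show a shared daily rhythm. In WT in PM the median deviation was 0.016 to 0.11 from CT0 to CT15 and -0.13 to 0.025 from CT18 to CT48, with values above 0 at CT21, CT24, CT33 and CT36. In AM, Npc2 passed in Bmal1KO (1 of 37, 3.4% of all genes), and Asah1 and Tfe3 in WT (2 of 37, 3.85%), of which 0 passed without the CT36 library of that course, the shallowest. Courses with opposite phases would differ in their 24 h terms, as would a rhythm in 1 course only or unequal amplitudes. By limma, these terms differed between AM and PM for none of 37 genes in Bmal1KO (0.368% of all genes) and none in WT (2.97%). At an unadjusted p under 0.05, 11 genes passed in Bmal1KO and 6 in WT.

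Further genes of the lysosome and of autophagy, grouped by list, are given for 27 °C against 37 °C, where 7.64% of all genes were higher and 4.04% lower in Bmal1KO, and 8.38% higher and 5.21% lower in WT. The values of these lists are without median-of-ratios scaling, which lowered the median of the 37 genes at 27 °C. Calls of higher levels just past 2-fold may not hold under it. Of 22 autophagy genes, 5 were higher in Bmal1KO and none lower, among them Calcoco1 (1.57) and Optn (1.36), receptors of selective autophagy, and Map1lc3a (1.09), an LC3 gene. In WT 4 were higher and none lower, led by Uvrag (1.40), Optn (1.36) and the tethering subunit gene Vps11 (1.34), with list medians of 0.49 in Bmal1KO and 0.60 in WT, where all genes had 0.21 in both. Of 13 other proton pump genes, none was called in Bmal1KO and 3 were higher in WT, Atp6ap2 (1.65), Atp6v1g1 (1.24) and Atp6v1d (1.06). Of 22 other lysosomal membrane genes, 2 were higher in Bmal1KO, Tmem192 (1.38) and Tmem106b (1.19), and 4 in WT, led by Tmem192 (1.60), Pqlc2 (1.46) and Ostm1 (1.12).

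Of 29 other lysosomal hydrolases tested, Cpq, a carboxypeptidase gene, was lower at 27 °C in both genotypes (-1.57 in Bmal1KO, -1.66 in WT). In WT, Ctso, the gene of cathepsin O, was also lower (-1.04), and Prcp, a prolylcarboxypeptidase gene, was higher (1.28). Among 16 genes of the TFEB family and its kinase mTORC1, Rragc and Mtor were higher in Bmal1KO (1.41 and 1.34) and in WT (1.80 and 1.63), and Mitf, a relative of Tfeb, was lower (-1.16 in Bmal1KO, -1.56 in WT). Fnip2 (1.26) and Lamtor1 (1.19) of this list were called higher in WT only. Vps35, a retromer subunit gene among 12 sorting genes, and Cstb, the cystatin B gene among 2 cathepsin inhibitors tested, were higher in WT (1.07 and 1.10), with no call from either list in Bmal1KO.

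Between the genotypes, where 7.01% of all genes were higher and 7.53% lower in AM and PM, the other hydrolases had 3 of 29 genes higher and 1 lower in Bmal1KO in AM and PM, Sgsh (1.30), Prcp (1.17), Ctsf (1.00) and Arsb (-1.27), and over the temperatures Ctsf was again higher (1.42; 5.92% of all genes) and Arsb lower (-1.75; 7.01%). Sgsh encodes a sulfatase of the same heparan sulfate pathway as Naglu. Abcb9, a lysosomal peptide transporter gene, was lower in Bmal1KO in both sets (-1.58 and -1.76), as were Mitf (-1.62 and -1.82) and the folliculin partner gene Fnip2 (-1.08 and -1.37). Over the temperatures, Cst3, of the cathepsin inhibitors, was lower in Bmal1KO (-1.57), and Gabarapl1, of the autophagy genes, was higher (1.254). In AM and PM the autophagy gene Gabarap was higher in Bmal1KO (1.04). The time trend of the 29 hydrolases was counted likewise. At 27 °C, 14 rose and 1 fell in Bmal1KO (11.4% and 11.7% of all genes), and 15 rose and 4 fell in WT (19.8% and 17%). At 37 °C, 3 rose and 18 fell in Bmal1KO (15.4% and 21.8%), and 4 rose and 14 fell in WT (10.3% and 16.3%). In Bmal1KO at 27 °C, 9 of the 29 hydrolases, 6 of the 22 autophagy genes and 1 of the 13 pump genes passed the 24 h test, as did 9.85% of all genes.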

How the data were processed

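Gene-level FPKM of 212 libraries were deposited by the authors. Per the labels, poly(A) RNA was made into libraries, and per the submitters' processing notes TopHat2 2.1.0, TopHat, Cuffdiff and GRCm38 were used. The sources used here do not give the settings, the annotation or the strand of counting. Symbols came from GENCODE M21 (47217 of 47631 IDs matched). Depth was estimated from the FPKM worth 1 read in 1357 single-transcript genes, where 95.7% of low values came within 0.15 of whole reads.

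Genes averaging 1 FPKM or more were tested two-sided as log2(FPKM + 1). The tool was limma 3.58.1 (R 4.3.3, with the data.table package at 1.17.8), in 1 fit of 68 AM and PM libraries (13307 genes) and 1 of 142 temperature libraries (13031 genes). A level, a straight time term and a 24 h cosine and sine were fitted for every course, with an intensity trend in eBayes, and p-values were adjusted by Benjamini-Hochberg over all genes tested. Pooled genotype calls also needed the same sign in each condition. The scripts were tested on simulated data. Figures and summaries used Python 3.11.15, pandas 2.3.3, numpy 2.4.6 and matplotlib 3.10.9.

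Named were the genes called at 2-fold in any comparison, those with the largest differences, the smallest p of the WT rhythm fits, Tfeb and Tfe3, and the genes beside the FPKM limit. From the further lists, mostly up to 3 genes with the largest called differences were named. The genes and lists were chosen with earlier results of these data known. Same-timed libraries of the 2 genotypes share only a time label. Alternatives were a pseudocount of 0.1, no filter, median-of-ratios scaling, the time label as a block, leaving out the shallowest library, and keeping both CT14 libraries. Added after the data were seen were a quadratic time term, leaving out early Bmal1KO libraries at 27 °C, and the tests of differences in trend and in rhythm.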

Additional observations from a re-analysis of the deposited data

Results flagged for a closer look

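The change at 27 °C relative to 37 °C differed past 2-fold between the genotypes, by a test of the difference itself, for 2 lysosomal genes, 1 of 37 upward (2.74% of all genes) and 1 downward (1.67%), shares near the background. Without the 2-fold limit, 14 were higher and 17 lower at an unadjusted p under 0.05 by limma. For Lgmn the interaction was 1.28 (log2, the change in Bmal1KO minus that in WT), since its median was 122 FPKM at 27 °C and 72.5 FPKM at 37 °C in Bmal1KO, and 157 FPKM at 27 °C and 231 FPKM at 37 °C in WT. For Gla it was -1.03, with medians of 31.5 FPKM at 27 °C and 14.9 FPKM at 37 °C in Bmal1KO, and 32.6 FPKM at 27 °C and 6.85 FPKM at 37 °C in WT. Each value rests on 1 course per genotype and temperature.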

How the results depend on the processing

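Over the alternatives, 437 of the counts of lysosomal genes stayed within 1.5 times their value and 22 did not, and 475 values of single genes kept direction and call. Of the other 11, 4 lost the call and 7, all values of Tfeb and Tfe3 below the 2-fold limit, changed sign, and no called value did. With no filter on low values, no gene was rhythmic in AM in Bmal1KO (0) or WT (0), and 1 differed in rhythm between the genotypes at 37 °C. After median-of-ratios scaling, 1 gene was higher at 27 °C in Bmal1KO and 3 in WT, and 1 was lower at 32 °C in WT, and the median of the 37 genes at 27 °C was -0.10 in Bmal1KO and -0.18 in WT, where it had been 0.14 and 0.07. Without the WT AM CT36 library, the shallowest, 0 genes were rhythmic in WT in AM. With the CT14 libraries at 27 °C kept as labelled, 12 genes were rhythmic at 27 °C in Bmal1KO and 1 in WT, 3 at 37 °C in Bmal1KO and 1 in WT, 10 differed in rhythm between the genotypes at 27 °C and 0 at 37 °C, 0 fell with time at 27 °C in Bmal1KO and 2 in WT, and 0 had a lower trend at 27 °C than at 37 °C in Bmal1KO. With a quadratic time term, chosen after seeing the data, 16 genes were rhythmic at 37 °C in Bmal1KO and 8 in WT, 7 differed there between the genotypes, 1 was rhythmic in WT at 27 °C and 1 in AM, 2 rose in WT in PM, and the Gaa difference in Bmal1KO was -0.98, below 2-fold. Leaving out the Bmal1KO CT2 library at 27 °C left 15 genes rising there, and leaving out CT0 and CT2 left 12, against 18 with all. The cause was not tested in these cases.

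With the time label as a replicate block, 28 counts stayed within 1.5 times, 14 medians within 0.1, and 81 single values kept direction and call: 5 genes were higher and 4 lower at 27 °C in WT, and 3 were higher and 1 lower in Bmal1KO than in WT in AM and PM. The labels pair the libraries by time only: their deviations had median correlations of 0.02 to 0.08 between genotypes, the lowest -0.09. Depth limits low values such as Cd68 in Bmal1KO at 37 °C.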
